A study of Mus musculus with 6 samples.

Results

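The follicular helper T cell (Tfh) programme is described here through 9 genes of the 27998 in the count matrices: Cxcr5, Bcl6, Tox, Tox2, Pou2af1, Il21, Angptl2, Cd200 and Sh2d1a. They were taken by symbol, and each matched 1 row. The rule that lists them uses no measured value, but the list was drawn up with earlier results of these data known. UMI counts came from droplet-based single-cell RNA sequencing (5' end capture) of sorted CD4+ T cells, with 3 libraries from spleen and 3 from vascular tissue. All 6 libraries come from C57/B6 mice carrying the label PPE, in which elastase exposure had induced an abdominal aortic aneurysm at 8 to 12 weeks of age and tissue was taken 14 days after surgery. No library of untreated mice enters the comparison, so both tissues are from diseased animals. Aortas were cut up and treated with digestive enzymes (1 h, 37 °C), spleens were only ground, so tissue and handling cannot be told apart. The labels do not say whether libraries of a tissue come from separate mice, so p-values measure the spread between libraries, which may be technical.

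Tfh cells are the CD4+ T cells that help B cells in follicles and germinal centres. CXCR5, the receptor for the chemokine CXCL13, brings them into the follicle, and BCL6 is the repressor that sets up the fate in opposition to BLIMP-1, the product of Prdm1. Their signature output is IL-21, and the adaptor SAP, product of Sh2d1a, carries signals from SLAM receptors that hold the T cell to the B cell. TOX and TOX2 are HMG-box factors, Pou2af1 encodes the octamer coactivator OBF-1 (OCA-B) that B cells use heavily, Cd200 encodes a surface ligand of the inhibitory receptor CD200R, and Angptl2 encodes a secreted angiopoietin-like protein.

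In GENCODE vM21 (GRCm38, the mm10 build of the files) all 9 are protein-coding genes: Cxcr5 at chr9:44511787-44561877 (minus strand), Bcl6 at chr16:23965052-23988852 (minus), Tox at chr4:6686353-6991557 (minus), Tox2 at chr2:163203125-163324170 (plus), Pou2af1 at chr9:51213708-51240080 (plus), Il21 at chr3:37222759-37232636 (minus), Angptl2 at chr2:33216069-33247717 (plus), Cd200 at chr16:45382135-45409053 (minus) and Sh2d1a at chrX:42502453-42529330 (plus). Exons of Cxcr5, Bcl6, Il21, Tox and Sh2d1a overlap exons of Bcl9l, Gm37419, Gm12534, Gm11802 and Tenm1 on the other strand, and Angptl2 lies within Ralgps1 on the other strand without overlap of exons. Whether the counting used strand is not stated in the sources used here, so reads of such a pair cannot be told apart. Over all Cd3e-positive cells the overlapping genes had 1722 UMIs (Bcl9l, beside 2540 of Cxcr5), 176 (Gm12534, beside 761 of Il21), 20 (Gm11802, beside 16091 of Tox), 0 (Tenm1, beside 28636 of Sh2d1a) and 644 (Ralgps1, beside 1498 of Angptl2). Gm37419 is not analysed here.

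Promoter windows are shown for Bcl6, the member that was higher in vascular tissue, and for Il21 and Angptl2, the pair with the highest ratio of co-detection in spleen. Each window is the 250 bases before a RefSeq transcription start (GRCm38.p6), read 5′ to 3′ on the gene's strand, and capitals mark TTCNNNGAA, a palindromic pattern typical of STAT factors and close to the pattern BCL6 binds. Bcl6 has a window at chr16:23988853-23989102 with 1 match and a downstream one at chr16:23981284-23981533 with 3 matches. The windows of Il21 at chr3:37232637-37232886 and Angptl2 at chr2:33215711-33215960, and those of the other members in the table (Tox2, Cd200, Pou2af1), hold none. Of 32851 promoter windows of this length, 7.02% hold at least 1.
Bcl6 upstream start: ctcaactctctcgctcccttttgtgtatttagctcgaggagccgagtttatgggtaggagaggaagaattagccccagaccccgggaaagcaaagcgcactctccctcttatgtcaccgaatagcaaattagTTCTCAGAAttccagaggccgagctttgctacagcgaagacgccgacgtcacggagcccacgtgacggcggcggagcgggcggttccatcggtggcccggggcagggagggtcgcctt
Bcl6 downstream start: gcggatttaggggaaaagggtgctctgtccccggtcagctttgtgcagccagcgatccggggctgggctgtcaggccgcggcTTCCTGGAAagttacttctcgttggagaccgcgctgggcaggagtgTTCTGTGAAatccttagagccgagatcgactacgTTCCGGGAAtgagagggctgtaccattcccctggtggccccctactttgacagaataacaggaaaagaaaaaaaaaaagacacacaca
Il21: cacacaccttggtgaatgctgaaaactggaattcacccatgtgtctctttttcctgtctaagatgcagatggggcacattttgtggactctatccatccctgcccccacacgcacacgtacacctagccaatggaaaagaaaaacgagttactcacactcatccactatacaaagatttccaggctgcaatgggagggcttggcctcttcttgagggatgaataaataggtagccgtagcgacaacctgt
Angptl2: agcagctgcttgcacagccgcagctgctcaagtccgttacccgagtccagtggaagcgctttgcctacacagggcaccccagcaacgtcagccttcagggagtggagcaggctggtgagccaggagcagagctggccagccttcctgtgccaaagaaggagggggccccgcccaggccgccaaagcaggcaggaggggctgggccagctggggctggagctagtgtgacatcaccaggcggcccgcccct
The octamer ATGCAAAT (1.6% of windows), the AP-1 pattern TGANTCA (6.75%) and the TCF and LEF pattern CTTTGAA (4.46%), searched on both strands, had no match in the windows of these 6 members. A match or its absence describes only these letters.

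The matrices hold 41315 barcodes and 240821626 UMIs, 2312 to 9581 barcodes per library. After filters on gene number and mitochondrial UMIs and removal of 2607 doublet-like barcodes, 38696 cells remained, of which 36042 had a Cd3e UMI and are the cells analysed: 18803 in spleen (2134 to 8486 per library) and 17239 in vascular tissue (4390 to 7268). Their median depth was 4954.5 to 5750 UMIs in spleen libraries and 4208 to 4873 in vascular ones. Checked against the sort label, Cd4 had a UMI in 54.2% to 64.3% of these cells per library and Cd8a in 0.187% to 0.922%. Markers of some other cells moved with tissue. The summed level of 5 plasmacytoid dendritic cell markers was 9.92 to 11.9 CPM in spleen and 68.1 to 103 CPM in vascular libraries, and that of 3 plasma cell markers was 3.12 to 130.0 and 177 to 406 CPM. The sum of 4 germinal centre B cell markers was 1.23 to 2.25 CPM in spleen and 0.166 to 0.681 CPM in vascular libraries. Macrophage markers overlapped, at 39.9 to 47.5 and 29.4 to 44.2 CPM, and so did smooth muscle markers, at 0.322 to 1.67 and 1.45 to 1.95 CPM. The endothelial sum was 42.3 to 46.2 and 30.5 to 36.9 CPM, most of it Pecam1 (means of 43.6 and 32.1 CPM). Any pair of libraries shared 18 to 136 barcodes, 0.766% to 1.69% of the smaller library.

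Bcl6 went up and Cxcr5 went down in vascular T cells. UMIs of all Cd3e-positive cells of a library were summed, scaled to the total of UMIs in those cells corrected by TMM factors (CPM), and compared between the tissues with edgeR's quasi-likelihood test, with p-values adjusted by the Benjamini-Hochberg method over 12220 genes, of which 41.0% were called at 0.05. Of the 9 members 6 were called, 1 higher and 5 lower in vascular tissue. Their median log2 difference was -0.39, beside 0.01 over all genes tested. For 7 of 9 every library of one tissue lay beyond every library of the other, against 54.0% of all genes.

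Cxcr5, the follicular homing receptor, stood at 17.4, 16.4 and 19.3 CPM in the spleen libraries and 4.83, 6.55 and 9.86 CPM in the vascular ones. Every vascular library lay below every spleen library. The log2 difference was -1.32 ± 0.22 (SE), edgeR adjusted p = 0.00202. With every cell thinned to 1000 UMIs, 1.63% ± 0.0866 (SD, n = 3) of spleen and 0.598% ± 0.189 of vascular T cells had a Cxcr5 UMI. At full depth these shares were 6.95% and 2.74%. In summed counts, fewer cells with a transcript and less of it per cell cannot be told apart, and the share of cells gives only part of that. The exact two-sided permutation test of 3 libraries against 3 cannot go below p = 0.1, the value reached here and for each of the 7 members whose libraries did not overlap in this share.

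Of the transcriptional regulators, Bcl6 stood at 4.19, 2.63 and 3.38 CPM in the spleen libraries and 9.45, 8.15 and 8.45 CPM in the vascular ones. The vascular libraries lay close together and above all spleen libraries. Bcl6 rose by a log2 difference of 1.40 ± 0.17 (SE), edgeR adjusted p = 0.000441, and its share of cells at 1000 UMIs was 0.341% ± 0.0625 in spleen and 0.888% ± 0.0434 in vascular tissue. Plasmacytoid dendritic-like cells without Cd3e, whose markers also were higher in vascular libraries, had a Bcl6 UMI in 0.387% (spleen) and 0.572% (vascular) at that depth. The spleen value rests on 1, 1 and 2 positive cells among 19, 73 and 49, the vascular one on 59 UMIs in 1113 cells. The part of plasmacytoid dendritic-like cells in the Bcl6 difference was not tested. Tox stood at 84.8, 87.3 and 85.5 CPM in the spleen libraries and 68.2, 77.5 and 81.8 CPM in the vascular ones. The libraries did not overlap, but the log2 difference of -0.18 ± 0.09 (SE), edgeR adjusted p = 0.124, was not called.

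Tox2, the relative of Tox, stood at 20.2, 17.2 and 18.5 CPM in the spleen libraries and 11.9, 10.5 and 16.6 CPM in the vascular ones. It fell, with a log2 difference of -0.51 ± 0.16 (SE), edgeR adjusted p = 0.0337, and vascular replicate 3 came nearest to spleen. That call did not hold without spleen replicate 1 at -0.49 (adjusted p = 0.0589), without spleen replicate 3 at -0.52 (adjusted p = 0.0757), without vascular replicate 1 at -0.45 (adjusted p = 0.098) or without vascular replicate 2 at -0.38 (adjusted p = 0.107). Pou2af1, the octamer coactivator, stood at 7.38, 9.07 and 9.11 CPM in the spleen libraries and 2.47, 3.95 and 4.03 CPM in the vascular ones. Every vascular library lay below the lowest spleen library, and the log2 difference was -1.31 ± 0.20 (SE), edgeR adjusted p = 0.00113. B-like cells without Cd3e had a Pou2af1 UMI in 17.2% (spleen) and 17.1% (vascular) of cells at 1000 UMIs. With Cd3e-positive cells that carried a B cell marker left out, the Pou2af1 difference was -1.73 (adjusted p = 0.000798).

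The secreted members did not pass the test in the sum of all T cells. Il21 stood at 5.68, 3.97 and 2.96 CPM in the spleen libraries and 1.96, 2.92 and 6.84 CPM in the vascular ones. Vascular replicate 3 was the highest and vascular replicate 1 the lowest of all 6 libraries, and the log2 difference was -0.05 ± 0.43 (SE), edgeR adjusted p = 0.943, with a 95% interval of -1.02 to 0.93. Without vascular replicate 3 it was -0.75 (adjusted p = 0.0815). Angptl2 stood at 9.8, 6.68 and 6.94 CPM in the spleen libraries and 7.81, 7.16 and 8.7 CPM in the vascular ones. The tissues overlapped, with a log2 difference of 0.05 ± 0.16 (SE), edgeR adjusted p = 0.834, and a 95% interval of -0.32 to 0.42.

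Both signalling members fell. Cd200, the ligand of CD200R, stood at 59.8, 38.6 and 38.5 CPM in the spleen libraries and 20.3, 24.8 and 34.9 CPM in the vascular ones. Spleen replicate 1 was far above the other libraries, and the log2 difference of -0.76 ± 0.22 (SE), edgeR adjusted p = 0.0254, was lost without spleen replicate 1 at -0.56 (adjusted p = 0.0528), without vascular replicate 1 at -0.59 (adjusted p = 0.0756) and without vascular replicate 2 at -0.71 (adjusted p = 0.0774). Over all filtered barcodes, Cd3e-negative ones included, it was -0.50 (adjusted p = 0.0576). Sh2d1a stood at 156, 154 and 174 CPM in the spleen libraries and 114, 118 and 137 CPM in the vascular ones. It was detected in 46.5% of spleen and 38.1% of vascular T cells. Its log2 difference was -0.39 ± 0.10 (SE), edgeR adjusted p = 0.0118, and -0.36 (adjusted p = 0.0556) without vascular replicate 2.

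**Figure D1:**
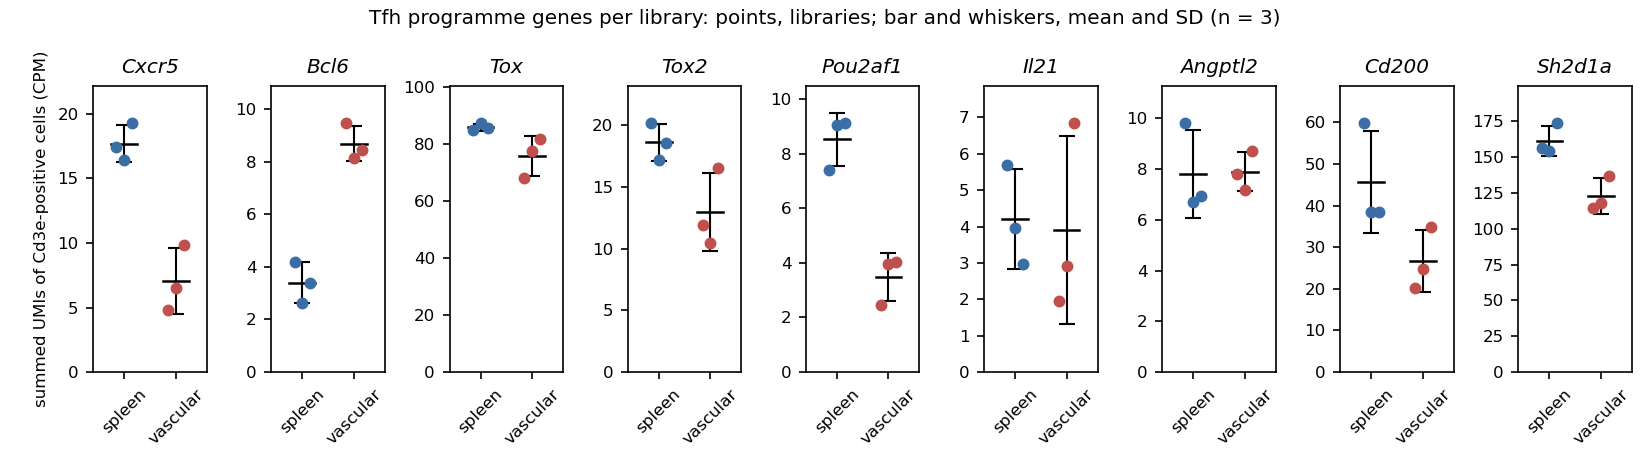
Summed UMIs of each Tfh programme gene in Cd3e-positive cells (CPM, linear axis from 0) for each of the 3 spleen and 3 vascular libraries, with the mean and SD. Bcl6 is above spleen in every vascular library, Cxcr5, Pou2af1, Tox2, Cd200, Tox and Sh2d1a are below it in every vascular library, and Il21 and Angptl2 overlap.

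Most vascular T cells that carried another member had no Cxcr5 UMI. Among all Cd3e-positive cells, 93.0% ± 0.595 in spleen and 97.3% ± 1.02 in vascular tissue had none. Of Bcl6-positive cells, 78.4% ± 6.74 in spleen and 94.2% ± 2.28 in vascular tissue lacked Cxcr5, so vascular Bcl6-positive cells lay near the rate of all T cells. The figures were 61.2% ± 3.43 and 80.7% ± 6.24 for Tox2, 51.8% ± 3.18 and 76.9% ± 8.4 for Il21, and 65.9% ± 5.08 and 86.8% ± 8.02 for Angptl2. For Pou2af1 they were 75.1% ± 0.738 and 81.4% ± 0.751, and Cd200, Tox and Sh2d1a lay between 83.9% and 88.2% in spleen and between 90.0% and 94.9% in vascular tissue. A cell without a Cxcr5 UMI is not shown to lack the transcript: of Cxcr5-positive cells, 70.6% (spleen) and 70.2% (vascular) had exactly 1 Cxcr5 UMI. Cells with at least 3 of the 8 other members numbered 1739 in spleen and 1071 in vascular tissue, of which 68.7% ± 0.968 and 83.0% ± 6.12 had no Cxcr5 UMI.

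**Figure D2:**
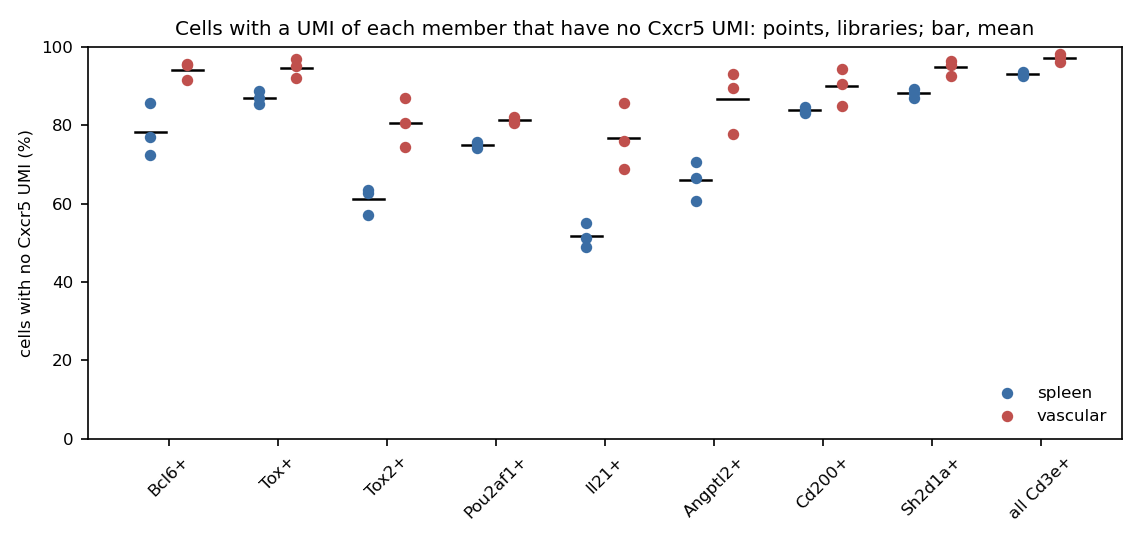
Share (%) of Cd3e-positive cells with at least 1 UMI of the member named on the axis that had no Cxcr5 UMI, per library (points) with the mean (bar); the rightmost pair is all Cd3e-positive cells. For Il21 the means are 51.8% in spleen and 76.9% in vascular tissue, and for Bcl6 78.4% and 94.2%.

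Which members persisted in vascular cells without Cxcr5 was read at 1000 UMIs per cell, against cells of other types in the same libraries. In the 16781 vascular Cxcr5-negative cells, Sh2d1a was found in 9.64% to 10.9% of cells per library, Tox in 6.22% to 7.23%, Tox2 in 0.716% to 1.01% and Bcl6 in 0.827% to 0.909%. Angptl2 was found in 0.58% to 0.65%, Il21 in 0.107% to 0.358% and Pou2af1 in 0.127% to 0.208%. These 7 of 8 members lay above the 1113 plasmacytoid dendritic-like cells in each vascular library. The shares there were 0% to 0.297% for Sh2d1a, 0.0266% to 0.0858% for Tox, 0.0432% to 0.227% for Tox2, 0.473% to 0.642% for Bcl6 and 0.0624% to 0.234% for Angptl2. None of the 1113 cells held an Il21 UMI, which over all 3 libraries allows a share of up to 0.270% at full depth. There a mean of 1.01% ± 0.581 of vascular Cxcr5-negative cells held one. Per library the allowed share was 0.522%, 1.21% and 1.03% in vascular replicates 1, 2 and 3. Il21 was found in 38 of 7139, 36 of 4274 and 89 of 5368 Cxcr5-negative cells. Its share lay within that limit in vascular replicate 2, about at it in replicate 1 and clearly above it only in replicate 3. B-like cells (16 to 29 per vascular library) and macrophage-like cells (9, 1 and 1) were too few to set a background for the rare members: a count of 0 in B-like cells allows a share of 10.3% to 18.8%. Pou2af1 was found in 12.7% to 21.1% of B-like cells, above its share in vascular Cxcr5-negative cells. Il21, Tox2 and Tox, 3 of 8 members, lay above plasmacytoid dendritic-like, B-like and macrophage-like cells in each vascular library. For Il21 and Tox2 the vascular B-like and macrophage-like cells held 0 UMIs. Sh2d1a and Angptl2 missed this only against the 11 macrophage-like cells, which held 2 and 1 UMIs of them. With so few cells, the count over all 3 kinds of cells does not say which members persisted. Cd200, in 1.46% to 2.22% of vascular Cxcr5-negative cells, lay below plasmacytoid dendritic-like cells (7.67% to 10.7%) in every vascular library. Those cells had a Cd200 UMI in 43.8% to 57.5% at full depth, so they set no background for this gene. Whether the Cd200 share lies above background was therefore not tested. Median depth was 4559.3 UMIs in vascular Cxcr5-negative cells, 8321.3 in plasmacytoid dendritic-like and 3862.7 in B-like cells (means of the library medians).

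Against spleen cells that also lacked Cxcr5, Bcl6 and Angptl2 were higher and Pou2af1, Cd200 and Sh2d1a lower in vascular tissue, and Tox2, Il21 and Tox were not called. This edgeR fit tested 12168 genes and called 43.4% of them. Bcl6 stood at 4.06, 2.02 and 2.83 CPM in the spleen libraries and 9.2, 8.03 and 8.08 CPM in the vascular ones. The lowest vascular library lay well above the highest spleen library, and the log2 difference was 1.59 ± 0.22 (SE), edgeR adjusted p = 0.000598. Angptl2 stood at 4.94, 4.89 and 4.33 CPM in the spleen libraries and 7.1, 6.68 and 6.59 CPM in the vascular ones. All vascular libraries were above all spleen libraries, by a log2 difference of 0.53 ± 0.12 (SE), edgeR adjusted p = 0.00739. In cells that lacked Foxp3 as well, the Angptl2 difference was 0.33 (adjusted p = 0.182) and the Sh2d1a difference -0.21 (adjusted p = 0.0851), and neither was called.

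Pou2af1 fell in these cells, with a log2 difference of -1.27 ± 0.23 (SE), edgeR adjusted p = 0.00226, from 6.83 ± 0.711 to 2.88 ± 0.898 CPM (SD, n = 3). Cd200 went from 40.3 ± 11.3 to 24.2 ± 5.89 CPM, -0.72 ± 0.21 (SE), edgeR adjusted p = 0.0248. Without vascular replicate 1 the Cd200 difference was -0.57 (adjusted p = 0.0802), and without vascular replicate 2 it was -0.68 (adjusted p = 0.073). Sh2d1a differed by -0.30 ± 0.09 (SE), edgeR adjusted p = 0.0231. It was not called without spleen replicate 2 at -0.33 (adjusted p = 0.0574), spleen replicate 3 at -0.26 (adjusted p = 0.0814), vascular replicate 1 at -0.26 (adjusted p = 0.0691) or vascular replicate 2 at -0.28 (adjusted p = 0.0881). Tox2 stood at 10.8, 10.9 and 10.8 CPM in the spleen libraries and 10.2, 8.58 and 12.3 CPM in the vascular ones. The tissues overlapped, with a difference of -0.06 ± 0.13 (SE), edgeR adjusted p = 0.754, and a 95% interval of -0.36 to 0.25. Il21 differed by 0.30 (adjusted p = 0.577) with an interval of -0.61 to 1.21, and Tox by -0.09 (adjusted p = 0.412) with an interval of -0.28 to 0.10.

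Cells with a Cxcr5 UMI were fewer in vascular tissue, 1.77% to 3.82% of Cd3e-positive cells per library (458 cells) against a mean of 6.95% ± 0.595 in spleen (1275 cells). Within them no member was called between the tissues, in a fit that called 3.68% of 8296 genes. Bcl6 stood at 5.65, 9.58 and 9.09 CPM in the spleen libraries and 16.1, 10.4 and 14.3 CPM in the vascular ones. Its libraries did not overlap, but the log2 difference of 0.69 ± 0.29 (SE), edgeR adjusted p = 0.227, missed the threshold. Unadjusted p-values were under 0.05 for Bcl6 (0.0363) and Tox2 (0.0343) only. Intervals of the difference were wide: -0.47 to 1.25 for Il21, -0.76 to 0.53 for Angptl2 and -1.14 to 0.16 for Pou2af1. With B-marker cells left out, the Pou2af1 difference of -0.49 (adjusted p = 0.404) became -0.99 (adjusted p = 0.049), a call. The B cell marker Cd79a had a UMI in 1.57% of spleen and 2.81% of vascular Cxcr5-positive cells.

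Within libraries, Cxcr5-positive cells were rich in the other members in both tissues. In spleen all 8 were higher in Cxcr5-positive than in Cxcr5-negative cells of the same library, where 10.1% of 11039 genes were higher. In vascular tissue 7 of 8 were, against 6.07% of genes. The log2 differences (± SE) in spleen and vascular tissue were 2.99 ± 0.24 and 2.92 ± 0.29 for Il21, 2.97 ± 0.09 and 2.70 ± 0.11 for Tox2, and 2.74 ± 0.21 and 2.14 ± 0.24 for Angptl2. For Pou2af1 they were 1.78 ± 0.24 and 2.59 ± 0.34, for Cd200 1.18 ± 0.09 and 1.56 ± 0.11, for Sh2d1a 1.26 ± 0.07 and 1.32 ± 0.08, and for Tox 1.01 ± 0.09 and 0.89 ± 0.10. The edgeR adjusted p-values of these 14 ranged up to 0.000171. Bcl6 was 1.48 ± 0.27 in spleen (adjusted p = 0.00135) and 0.56 ± 0.29 in vascular tissue (adjusted p = 0.246).

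The difference between Cxcr5-positive and Cxcr5-negative cells was itself compared between the tissues. No member was called (interaction term, 5.34% of genes called), with unadjusted p-values under 0.05 for Bcl6 (0.0298) and Cd200 (0.0145). For Bcl6 the interaction was -0.93 ± 0.38 (SE, adjusted p = 0.223), with a 95% interval of -1.75 to -0.10. That Bcl6 was called in spleen and not in vascular tissue is therefore not shown to be a difference between them.

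The gates then asked in which T cells the members lay. Cd3e-positive cells were split into Foxp3-positive cells, Foxp3-negative cells with an Ifng UMI, the remaining cells with a Cd44 UMI, and cells with none of these. Foxp3 marks regulatory T cells, Ifng encodes the Th1 cytokine interferon gamma, and Cd44 marks antigen-experienced T cells. The Foxp3 gate took 9.51% ± 0.482 of spleen and 9.21% ± 1.24 of vascular T cells, the Ifng gate 7.41% ± 0.563 and 28.0% ± 9.17, the Cd44 gate 11.3% ± 0.791 and 21.2% ± 0.673, and the cells with none 71.8% ± 1.68 and 41.6% ± 7.88. A gate reads UMIs, so the cells it takes depend on depth, and the cells of a gate in the 2 tissues need not be of the same kind.

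In cells with none of the 3 gate genes, 4 of 9 members were called (30.3% of 10718 genes). Bcl6 stood at 2.7, 2.25 and 3.11 CPM in the spleen libraries and 8.6, 7.47 and 6.95 CPM in the vascular ones. The groups were far apart, and the log2 difference was 1.51 ± 0.19 (SE), edgeR adjusted p = 0.000919. Pou2af1 fell, with a log2 difference of -1.23 ± 0.25 (SE), edgeR adjusted p = 0.00738. Cd200 differed by -0.65 ± 0.21 (SE), edgeR adjusted p = 0.0412, and Angptl2 by 0.65 ± 0.21 (SE), edgeR adjusted p = 0.0438. Both of these were lost without spleen replicate 1, 2 or 3 or vascular replicate 1, at adjusted p-values from 0.0539 to 0.107 for Cd200 and from 0.067 to 0.143 for Angptl2. Cd200 was also lost without vascular replicate 2 at -0.58 (adjusted p = 0.133) and Angptl2 without vascular replicate 3 at 0.52 (adjusted p = 0.121) and with DESeq2 at 0.65 (adjusted p = 0.083). Cxcr5 was 10.6 ± 1.94 CPM in spleen and 7.51 ± 1.41 CPM in vascular tissue here, -0.53 (adjusted p = 0.0607), and it was called without spleen replicate 1 at -0.65 (adjusted p = 0.024). Tox2 was called without vascular replicate 3 at -0.61 (adjusted p = 0.0268). Sh2d1a at -0.13 (adjusted p = 0.368), Tox at -0.01 (adjusted p = 0.959) and Il21 at 0.51 (adjusted p = 0.427) were not called.

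Cxcr5 was lower in vascular than in spleen Foxp3-positive cells. In that gate 3 of the 8 members that passed the filter on low counts were called, all lower in vascular tissue, against 25.8% of 10006 genes. Cxcr5 stood at 24.2, 16.7 and 23.5 CPM in the spleen libraries and 4.78, 5.07 and 5.12 CPM in the vascular ones. The vascular libraries were tightly grouped and well below spleen, and the log2 difference was -2.07 ± 0.22 (SE), edgeR adjusted p = 0.000118. Sh2d1a differed by -0.85 ± 0.11 (SE), edgeR adjusted p = 0.00044, and Cd200 by -0.66 ± 0.13 (SE), edgeR adjusted p = 0.00406. Tox was 142 ± 11.3 CPM in spleen and 139 ± 4.95 CPM in vascular tissue, -0.05 (adjusted p = 0.761), with an interval of -0.25 to 0.16. Tox2 stood at 17.7, 19 and 18 CPM in the spleen libraries and 40.9, 23.5 and 20.5 CPM in the vascular ones. All vascular libraries lay above spleen, without a call at 0.62 (adjusted p = 0.0907), and it became 0.82 (adjusted p = 0.0341) without vascular replicate 3. Angptl2 likewise went from 0.53 (adjusted p = 0.148) to 0.77 (adjusted p = 0.0266) without that library. Bcl6 at 0.85 (adjusted p = 0.12) and Pou2af1 at -0.19 (adjusted p = 0.766) were not called. Il21 failed the filter and is not tested in this gate; at 1000 UMIs its share of Foxp3-positive cells was 0.136% ± 0.0917 in spleen and 0.095% ± 0.0731 in vascular tissue.

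In the Ifng gate all 9 members were called between the tissues, 8 lower and Bcl6 higher in vascular cells, where 27.1% of 10007 genes were called and 12.0% were called lower. The members' median log2 difference was -1.69, beside -0.01 over all genes. Cxcr5 stood at 30.9, 23.1 and 37.2 CPM in the spleen libraries and 2.72, 4.66 and 8.11 CPM in the vascular ones. The difference was -2.67 ± 0.33 (SE), edgeR adjusted p = 0.000214. Angptl2 stood at 50.0, 18.2 and 25 CPM in the spleen libraries and 6.35, 5.9 and 8.8 CPM in the vascular ones. Spleen replicate 1 was highest, no vascular library came near spleen, and the difference was -2.02 ± 0.32 (SE), edgeR adjusted p = 0.00117. Tox2 stood at 41.9, 21.3 and 30.4 CPM in the spleen libraries and 5.36, 6.05 and 11.7 CPM in the vascular ones, a difference of -2.00 ± 0.31 (SE), edgeR adjusted p = 0.000941.

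Pou2af1 in the Ifng gate differed by -1.87 ± 0.49 (SE), edgeR adjusted p = 0.0164. It was -1.89 (adjusted p = 0.057) without spleen replicate 2 and -1.89 (adjusted p = 0.0547) without spleen replicate 3, and -3.08 (adjusted p = 0.000598) with B-marker cells left out. Cd200 differed by -1.69 ± 0.25 (SE), edgeR adjusted p = 0.000654, Tox by -0.78 ± 0.11 (SE), edgeR adjusted p = 0.000516, and Sh2d1a by -0.73 ± 0.11 (SE), edgeR adjusted p = 0.000811. Il21 stood at 22.1, 16.9 and 10.6 CPM in the spleen libraries and 2.64, 6.21 and 10.9 CPM in the vascular ones. Vascular replicate 3 overlapped the lowest spleen library, and the difference of -1.35 ± 0.44 (SE), edgeR adjusted p = 0.0427, was lost without spleen replicate 1 at -1.18 (adjusted p = 0.0898), spleen replicate 2 at -1.25 (adjusted p = 0.149), vascular replicate 1 at -0.85 (adjusted p = 0.0899) and vascular replicate 2 at -1.36 (adjusted p = 0.0825). Bcl6 rose by 1.34 ± 0.26 (SE), edgeR adjusted p = 0.004.

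In the Cd44 gate 7 of 9 members were called, 6 of them lower (27.3% of 10319 genes called). Pou2af1 differed by -1.93 ± 0.21 (SE), edgeR adjusted p = 0.000102, Cxcr5 by -1.76 ± 0.28 (SE), edgeR adjusted p = 0.00114, Tox2 by -1.14 ± 0.25 (SE), edgeR adjusted p = 0.00683, and Sh2d1a by -0.72 ± 0.11 (SE), edgeR adjusted p = 0.000875. Bcl6 rose by 1.28 ± 0.27 (SE), edgeR adjusted p = 0.00614. Cd200, at -0.89 (adjusted p = 0.0446), was lost without spleen replicate 1 at -0.60 (adjusted p = 0.118), vascular replicate 1 at -0.64 (adjusted p = 0.126) and vascular replicate 2 at -0.85 (adjusted p = 0.107), and with DESeq2 at -0.94 (adjusted p = 0.127). Tox, at -0.34 (adjusted p = 0.0441), was lost with DESeq2 at -0.35 (adjusted p = 0.0632) and without spleen replicate 1, 2 or 3 or vascular replicate 1 or 3, at adjusted p-values from 0.0538 to 0.126. Il21 stood at 10.5, 3.93 and 6.05 CPM in the spleen libraries and 1.64, 1.82 and 11.2 CPM in the vascular ones. Vascular replicate 3 alone was above all spleen libraries, and the difference of -0.26 (adjusted p = 0.803) became -1.83 (adjusted p = 0.0156) without it. Angptl2 was not called at -0.07 (adjusted p = 0.878).

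**Figure D3:**
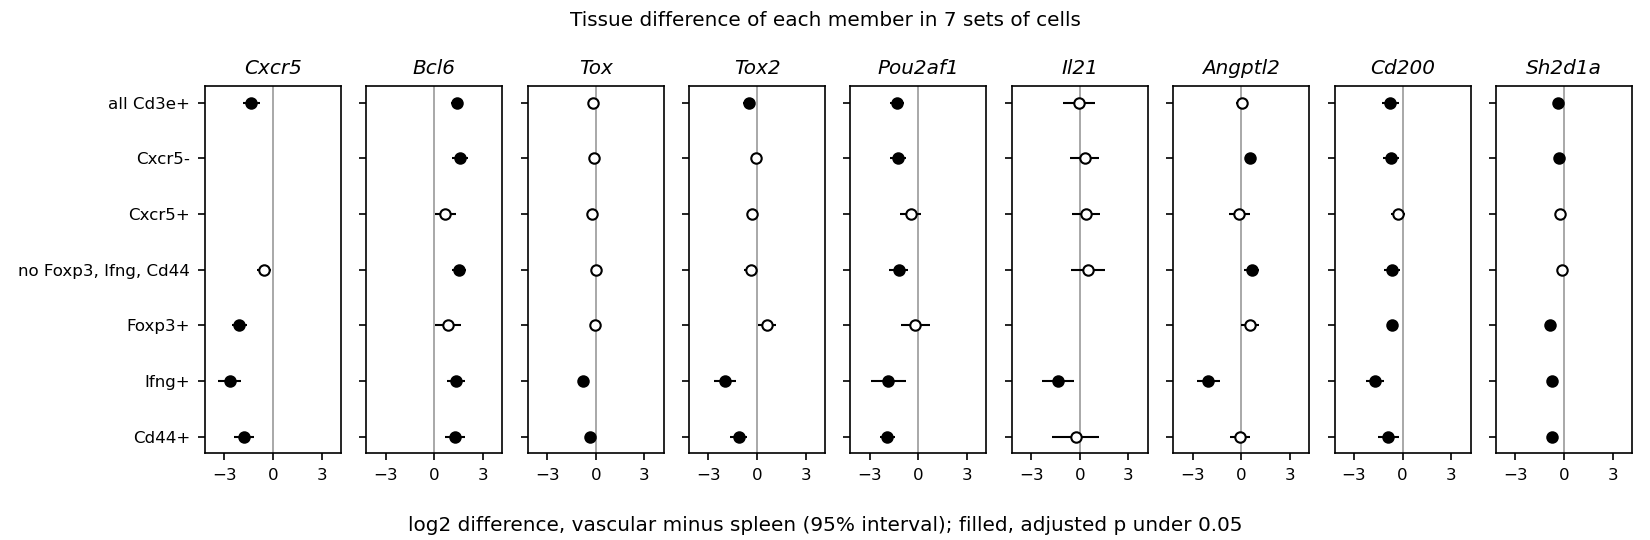
Log2 difference between vascular tissue and spleen of each member (x axis, edgeR, 95% interval as a line) in all Cd3e-positive cells, Cxcr5-negative and Cxcr5-positive cells, and the 4 gates (y axis); filled points have an adjusted p under 0.05. Bcl6 lies to the right of 0 in every set, between 0.69 and 1.59, and the Ifng gate holds the lowest values of Cxcr5 (-2.67), Angptl2 (-2.02) and Tox2 (-2.00).

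Gated cells were next compared with cells of the same library that had none of the gate genes. In spleen the Ifng gate had 7 members higher and none lower (38.6% of genes called in either direction), the Cd44 gate 8 higher, all but Bcl6, and none lower (33.5%), and the Foxp3 gate 5 higher and 1 lower (42.1%). Several of these spleen calls were lost when 1 library was left out. In the Cd44 gate Il21 was lost without spleen replicate 1 at 1.07 (adjusted p = 0.12) and 3 at 1.01 (adjusted p = 0.209), Tox without 2 at 0.27 (adjusted p = 0.0749) and 3 at 0.25 (adjusted p = 0.121), and Angptl2 without 3 at 1.12 (adjusted p = 0.0717). In the Foxp3 gate Cxcr5 was lost without spleen replicate 1 at 0.45 (adjusted p = 0.0884) and 3 at 0.57 (adjusted p = 0.098). Pou2af1, the lower one, was lost there without any 1 of the 3 spleen libraries, with relative log expression factors at -0.91 (adjusted p = 0.0587) and with doublet-like cells kept at -0.78 (adjusted p = 0.0501). In the Ifng gate Tox was lost without spleen replicate 1 at 0.19 (adjusted p = 0.115) and 3 at 0.27 (adjusted p = 0.0982). In vascular tissue the Ifng gate had none higher and 2 lower, Cxcr5 and Tox (31.2%), the Cd44 gate 2 higher, Tox2 and Cd200 (24.6%), and the Foxp3 gate 4 higher and 3 lower (53.9%). In the vascular Ifng gate Cxcr5 was lost without vascular replicate 1 at -0.62 (adjusted p = 0.0971) and 2 at -0.76 (adjusted p = 0.0607), and with no filter on low counts Il21 was called higher at 0.90 (adjusted p = 0.000599) and Tox2 lower at -0.42 (adjusted p = 0.0263). With no such filter the vascular Cd44 gate also had Angptl2 higher at 0.54 (adjusted p = 0.0125) and Pou2af1 higher at 0.65 (adjusted p = 0.0235). Angptl2 in spleen Ifng-positive cells was 2.69 ± 0.27 (SE) above cells with none (adjusted p = 4.49e-08), and in vascular ones 0.12 ± 0.30 (adjusted p = 0.806). Il21 was 2.56 (adjusted p = 6.95e-06) in spleen and 0.91 (adjusted p = 0.0855) in vascular tissue. In vascular Foxp3-positive cells the higher members were Tox2 at 1.47 (adjusted p = 7.58e-05), Angptl2 at 1.37 (adjusted p = 0.000374), Tox at 0.67 (adjusted p = 3.22e-07) and Cd200 at 0.67 (adjusted p = 0.000832), and the lower ones Cxcr5 at -0.91 (adjusted p = 0.00815), Bcl6 at -0.59 (adjusted p = 0.0343) and Sh2d1a at -0.26 (adjusted p = 0.00133). Bcl6 was lost there without vascular replicate 2 at -0.52 (adjusted p = 0.167) and 3 at -0.45 (adjusted p = 0.19). Il21 was called lower there without vascular replicate 1 at -2.00 (adjusted p = 0.0303) and 2 at -2.22 (adjusted p = 0.0202).

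Whether a gate's difference itself differed between tissues was tested as an interaction. For the Ifng gate 6 members were called, all lower in vascular tissue, where 8.43% of 11108 genes were called: Angptl2 at -2.57 (adjusted p = 0.000232), Cxcr5 at -2.04 (adjusted p = 0.00011), Tox2 at -1.57 (adjusted p = 0.0124), Cd200 at -1.05 (adjusted p = 0.00123), Tox at -0.74 (adjusted p = 0.000284) and Sh2d1a at -0.59 (adjusted p = 0.000126). Tox2 was not called without spleen replicate 1 at -1.45 (adjusted p = 0.0555), spleen replicate 3 at -1.51 (adjusted p = 0.0838) or vascular replicate 2 at -1.47 (adjusted p = 0.0596). Pou2af1 was -0.62 (adjusted p = 0.537), and -1.74 (adjusted p = 0.0187) with B-marker cells left out. Il21 was not called in the main fit. It was called at -1.61 (adjusted p = 7.61e-06) with no filter on low counts and at -1.63 (adjusted p = 0.0348) with doublet-like cells kept. For the Cd44 gate Cxcr5 at -1.21 (adjusted p = 0.0133) and Sh2d1a at -0.60 (adjusted p = 0.000726) were called (2.35% of genes), Cxcr5 not without spleen replicate 3 at -1.29 (adjusted p = 0.056) or vascular replicate 2 at -0.99 (adjusted p = 0.117). For the Foxp3 gate the same 2 members were called (12.1% of genes), Cxcr5 at -1.52 (adjusted p = 0.00414) and Sh2d1a at -0.73 (adjusted p = 1.12e-05). Tox2 in that gate was 1.01 (adjusted p = 0.0826), and 1.43 (adjusted p = 0.00251) without vascular replicate 3. Bcl6 was called in no interaction.

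**Figure D4:**
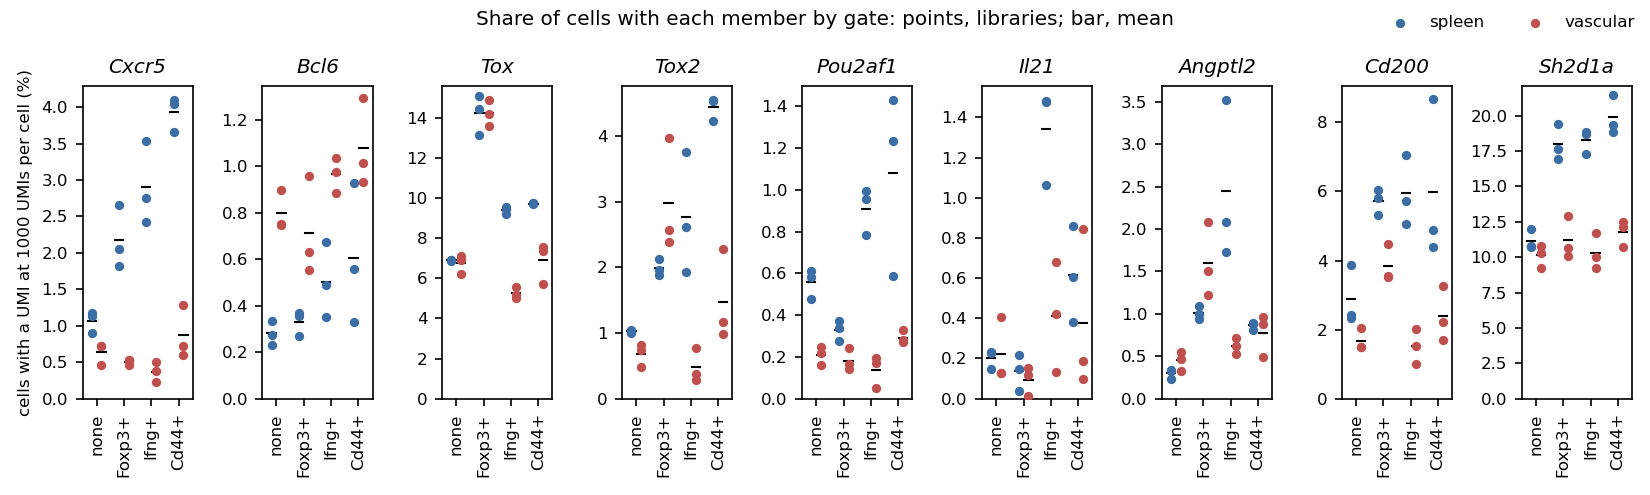
Share (%) of cells with a UMI of each member after thinning every cell to 1000 UMIs (linear axes from 0), per library (points) and as a mean (bar), for cells with none of Foxp3, Ifng and Cd44 and for the 3 gates. Tox is found in 14.2% of Foxp3-positive cells in both tissues, Angptl2 in 2.45% of spleen and 0.62% of vascular Ifng-positive cells.

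Members were detected in the same cells to different degrees. Among Il21-positive spleen cells, an Angptl2 UMI was found at 26.2 times the rate of all other spleen T cells at 1000 UMIs (84 cells carried both), and among Il21-positive vascular cells at 7.1 times (48 cells). With Cxcr5 as the gate, Tox2 was found at 9.8 times in spleen and 8.3 times in vascular tissue, and Il21 at 10.4 and 9.8 times. Bcl6-positive cells had Tox2 at 4.2 and 2.2 times, Il21 at 5.1 and 1.9 times, and Pou2af1 at 4.9 and 2.0 times. In all 8 ratios of Bcl6-positive cells the vascular value was the lower. Sh2d1a-positive cells, the most common kind, had Bcl6 at 1.5 and 1.0 times. The ratios are descriptions from the means of 3 libraries, gated at full depth, where depth can differ between gated and other cells, and they have no test.

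**Figure D5:**
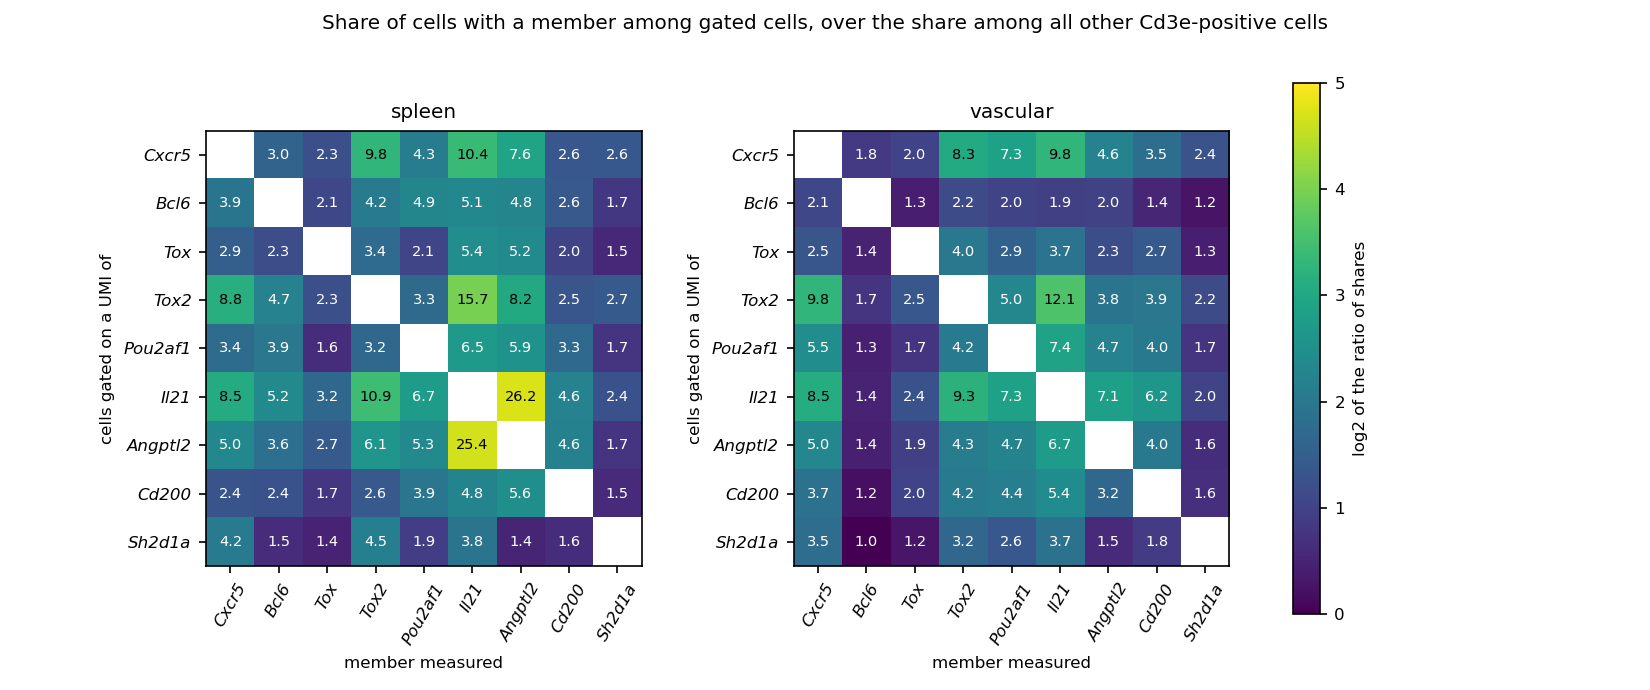
Share of cells with the member named on the x axis among cells gated on a UMI of the member on the y axis, divided by its share among all other Cd3e-positive cells of the tissue (1000 UMIs per cell, mean of 3 libraries; colour is log2 of the printed ratio). The Il21 and Angptl2 pair is at 25.4 to 26.2 in spleen and 6.7 to 7.1 in vascular tissue, and the Bcl6 row is at 1.7 to 5.1 in spleen and 1.2 to 2.2 in vascular tissue.

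The wider Tfh pathway moved in both directions. Of 28 other Tfh genes, 12 were higher and 7 lower in vascular Cd3e-positive cells, where 41.0% of all genes were called, with a median log2 difference of 0.09 beside 0.01 over all genes. Pdcd1 (PD-1, the inhibitory receptor) went from 30.8 ± 2.58 to 141 ± 24.1 CPM (edgeR adjusted p = 1.85e-05). Icos, a costimulatory receptor, differed by 1.97 (adjusted p = 5.00e-05), the SLAM receptor Slamf1 by 1.83 (adjusted p = 0.000219), the chemokine receptor Cxcr4 by 1.28 (adjusted p = 0.000166) and the transcription factor Maf by 1.14 (adjusted p = 0.00206). Lower were Ascl2, a basic helix-loop-helix factor that drives Cxcr5 expression, at -2.57 (adjusted p = 0.00556), Lef1 at -1.14 (adjusted p = 0.00413) and its relative Tcf7 at -1.08 (adjusted p = 0.0013). Ascl2 was rare, at 1.25 ± 0.366 CPM in spleen and 0.213 ± 0.215 CPM in vascular tissue.

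Among 9 genes that oppose the Tfh fate, 3 were higher and 4 lower, against the same 41.0% of all genes called. Prdm1, the BCL6 antagonist, went from 4.89 ± 1.42 to 18.6 ± 3.35 CPM, 1.99 ± 0.20 (SE), edgeR adjusted p = 0.000176. Id2, an inhibitor of E proteins, differed by 1.25 (adjusted p = 0.000815), the IL-2 receptor chain Il2ra by 1.10 (adjusted p = 4.41e-05) and the egress factor Klf2 by -0.81 (adjusted p = 0.0049). Bcl6 and Prdm1 thus were both higher in the summed vascular T cells. Prdm1 separated by Cxcr5 in vascular tissue, at -1.89 ± 0.31 (SE, adjusted p = 0.00119) in Cxcr5-positive against Cxcr5-negative cells, and not in spleen, at -0.01 ± 0.26 (adjusted p = 0.989). The interaction was -1.88 (adjusted p = 0.0209).

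The Cxcr5 difference of several other Tfh genes was lower in vascular tissue than in spleen. Of the 28 other Tfh genes, 14 were higher in Cxcr5-positive spleen cells (10.1% of all genes) and 12 in vascular ones (6.07%). The interaction called 9 (5.34% of all genes), of which 3 were higher and 6 lower in vascular tissue. Pdcd1 was 2.68 (adjusted p = 1.50e-10) in spleen and 0.31 (adjusted p = 0.0233) in vascular tissue, an interaction of -2.37 (adjusted p = 1.21e-07). In CPM it was 135 and 21.2 in Cxcr5-positive and Cxcr5-negative spleen cells, and 176 and 144 in vascular ones. The interaction was also called for Maf at -1.49 (adjusted p = 0.000356), Slamf1 at -1.35 (adjusted p = 0.000136) and Icos at -1.24 (adjusted p = 9.42e-05). The lymph node homing receptor Ccr7, one of the 9 opposing genes, was -1.36 (adjusted p = 5.02e-06) in Cxcr5-positive spleen cells and 0.22 (adjusted p = 0.321) in vascular ones, an interaction of 1.57 (adjusted p = 0.000249). Ascl2 was higher in Cxcr5-positive cells of both tissues, at 3.51 (adjusted p = 4.17e-05) and 5.63 (adjusted p = 0.00074).

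The genes that followed Cxcr5 most closely were named by the log2 difference between Cxcr5-positive and Cxcr5-negative cells, among genes at 20 CPM or more in the positive cells and higher in each of the 3 libraries of a tissue. In spleen, with 644 such genes, they were Gal (a neuropeptide), Sostdc1 (a secreted BMP and Wnt antagonist), Cebpa, H2-Q2, Hist1h3c and the member Il21, at 4.45, 3.44, 3.41, 3.04, 3.01 and 2.99. H2-Q2 and Hist1h3c belong to families of near-identical genes, so their counts are uncertain. In vascular tissue, with 483, they were Cd79a, Sostdc1, Il21, Tox2, Cd160 and Angptl2, at 3.90, 3.53, 2.92, 2.70, 2.65 and 2.14. Sostdc1 stood at 49.8 ± 24.2 CPM in Cxcr5-positive and 4.07 ± 1.7 in Cxcr5-negative spleen cells, and at 49.6 ± 9.94 and 4.52 ± 2.93 in vascular ones. Cd79a is the B cell marker whose share of cells is given above. It varied widely between libraries, at 60.6 ± 49.1 CPM in Cxcr5-positive and 3.19 ± 0.422 CPM in Cxcr5-negative vascular cells. Il21 also varied widely in vascular Cxcr5-positive cells, at 22.7 ± 17.4 CPM. Hist1h3c varied more between libraries than its mean, at 45.2 ± 72.3 CPM. With B-marker cells left out, the same number of members, 15 of 16 over both tissues, were higher in Cxcr5-positive cells.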

How the data were processed

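Per the submitters' processing notes, the authors used FastQC 0.11.8, Cell Ranger 2.2.0, STAR 2.5.1b, Seurat and the mm10 build. The deposited matrices hold raw UMI counts per gene and barcode, with no normalization, and the filters behind them and the strand setting are not given in the sources used here.

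Barcodes under 300 genes or above 10% mitochondrial UMIs were dropped. Doublet-like barcodes were called per library from 2 simulated doublets per cell in 30 principal components with 15 neighbours and removed at an expected rate of 0.8% per 1000 cells. Cells without Cd3e that had at least 2 Siglech UMIs, or at least 2 of Cd79a, Cd79b and Ms4a1, or of C1qa, C1qb and C1qc, are called plasmacytoid dendritic-like, B-like and macrophage-like. UMIs were summed per library and cell set and tested with edgeR 4.0.16 (R 4.3.3, TMM, filterByExpr, quasi-likelihood, Benjamini-Hochberg at 0.05 over all genes). Fits within libraries had the library as a block. CPM values are UMI counts scaled to a common total per set with TMM factors, computed here. Shares of cells stated at 1000 UMIs, and those in the co-detection ratios, are expected values after thinning, and no cell was shallower. All other shares, such as those of gates, of Cxcr5-positive cells and of cells without Cxcr5, are at full depth. Cell numbers give counting error only. The edgeR script was tested on simulated data. Alternatives included DESeq2 1.42.0, leaving out each library, and leaving out Cd3e-positive cells with a UMI of a B cell marker. The summed level of the B cell markers is not reported here.

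The members and gene lists were chosen with earlier results of these data known. Named beyond the members are up to 8 other Tfh and 4 opposing genes by size of the called difference, and 6 genes per tissue highest in Cxcr5-positive cells at 20 CPM or more. Whether equal replicate numbers mark the same mice is not in the labels, and the main fits between tissues used no such block. Correlations of deviations were 0.077, 0.026 and 0.154 for equal numbers and -0.128 to 0.055 for unequal ones. So few libraries cannot decide the pairing.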

Additional observations from a re-analysis of the deposited data

Results flagged for a closer look

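The difference between gated cells and cells with none of Foxp3, Ifng and Cd44, tested as an interaction with tissue in edgeR, differed between spleen and vascular tissue for these members. All values are log2, the vascular difference minus the spleen one, so a negative value can stand for a smaller difference or one of opposite sign, as for Cxcr5 and Sh2d1a in the Foxp3 gate and Cxcr5 and Tox in the Ifng gate. In the Ifng gate they were -2.57 for Angptl2, -2.04 for Cxcr5, -1.57 for Tox2, -1.05 for Cd200, -0.74 for Tox and -0.59 for Sh2d1a. In the Foxp3 gate they were -1.52 for Cxcr5 and -0.73 for Sh2d1a, and in the Cd44 gate -1.21 for Cxcr5 and -0.60 for Sh2d1a. The Ifng gate took 7.41% of spleen and 28.0% of vascular T cells, and the part of that difference in these values was not tested.

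The difference between Cxcr5-positive and Cxcr5-negative cells also differed between the tissues for the following genes named by rule: Pdcd1 at -2.37, Prdm1 at -1.88, Maf at -1.49, Slamf1 at -1.35, Icos at -1.24 and Ccr7 at 1.57. No member was among the genes called in that test.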

How the results depend on the processing

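Of 2239 values recomputed for 206 results, counts of calls included, 0 reversed a called difference or a share whose libraries did not overlap. Changes of sign in the remaining results were not counted. With no filter on low counts, 798 genes were called between tissues in Cxcr5-positive cells and 918 in the interaction of Cxcr5 with tissue, against 305 and 590. With doublet-like cells kept, the first count was 465. With B-marker cells left out, 1 member, Pou2af1, was called between tissues in Cxcr5-positive cells. In Cxcr5-negative cells that also lacked Foxp3, 3 members were called in place of 5.

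Leaving out each library in turn gave 3317 to 6034 genes (5010 with all) and 3 to 6 members called between tissues in all Cd3e-positive cells, and 3 to 5 members in Cxcr5-negative cells. It gave 108 to 528 genes in Cxcr5-positive cells, 1589 to 3085 genes (2586) and 3 to 5 members in the Foxp3 gate, 1642 to 3094 genes (2707) in the Ifng gate and 1877 to 3178 (2816) in the Cd44 gate. Cells with none of the gate genes had 1597 to 3769 genes (3249) and 2 to 4 members called. The fit of Cxcr5-positive against Cxcr5-negative cells called 2289 to 3699 genes (3719), its interaction with tissue 320 to 694 (590) and the gate interactions 1165 to 2753 (2543). The cause of these changes was not tested, beyond the smaller number of libraries.

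Whether equal replicate numbers mark the same mice is not known. With the replicate block, 4877 genes and 6 members were called in all Cd3e-positive cells, against 5010 and 6. For 56 results of single members the status, called or not called, stayed the same. Lost were Il21 in the Ifng gate at -1.30 (adjusted p = 0.0537), Cd200 in the Cd44 gate at -0.91 (0.0661) and Angptl2 in cells with none of the gate genes at 0.65 (0.0757), and Cxcr5 in those cells gained a call at -0.50 (0.0287). DESeq2 called 4590 genes and the same number of members, 6. Depth limits the Cxcr5 gate, since 70.6% (spleen) and 70.2% (vascular) of Cxcr5-positive cells rest on a single UMI.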
